A study of Rattus norvegicus with 12 samples.

Results

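The genes described here are Nfe2l2, which encodes the transcription factor Nrf2, and 4 of its textbook antioxidant targets, Hmox1, Nqo1, Gclc and Gclm. They were picked by Ensembl gene ID as a fixed list of 5 among the 32402 genes of the deposited table, without reference to a threshold on their values. The IDs, in the order Nfe2l2, Hmox1, Nqo1, Gclc and Gclm, are ENSRNOG00000001548, ENSRNOG00000014117, ENSRNOG00000012772, ENSRNOG00000006302 and ENSRNOG00000013409. The pairing of ID and symbol came with the list and was not checked against a second table.

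RNA was sequenced from cultured rat oligodendrocyte precursor cells, the progenitors of the myelinating cells of the central nervous system, originally taken from the spinal cord of adult rats and used up to passage 6. Tunicamycin blocks N-linked glycosylation and so burdens the endoplasmic reticulum with misfolded protein. Cells were given tunicamycin at 5 µM for 2 h, the same dose for 8 h, or 0 µM for 2 h or for 8 h as the matched controls. Each of the 4 groups held 3 libraries, 12 in all, from 3 independent experiments, and the study placed both times before cell death. No genetic change distinguishes the groups, and the labels name no strain. The precursor identity of the cells was not checked here, since the IDs of marker genes were not paired with names. P-values of the main fits weigh differences of group means against the spread between libraries within groups. That spread was pooled over all 4 groups, so a library apart from its group also bears on tests of other groups. In RNA from whole cultures, fewer cells of a type and less RNA per cell cannot be told apart.

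Nrf2 is made constantly and, in unstressed cells, is bound by Keap1 and degraded. Oxidants and electrophiles modify Keap1, Nrf2 then accumulates in the nucleus, pairs with small Maf proteins and binds antioxidant response elements near its target genes. The kinase PERK, a sensor of endoplasmic reticulum stress, is also known to act on Nrf2. Much of this control is on the protein, whereas the values here are RNA levels. Among the targets, heme oxygenase 1 (Hmox1) breaks down heme, Nqo1 reduces quinones, and Gclc and Gclm are the catalytic and modifier subunits of glutamate-cysteine ligase, the rate-limiting enzyme of glutathione synthesis.

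The core of the antioxidant response element was searched as TGACNNNGC on both strands of the RefSeq promoter windows (250 bases before to 50 after an annotated start, build GRCr8, not the build of the deposited values). Of the 5 genes, 4 had a window in the table; Hmox1 had none. Gclm and Nfe2l2 each held 1 match, and Gclc and Nqo1 held none. Of the 250 upstream bases, 250 for Nfe2l2 and 225 for Gclc lie inside the annotated span of the gene, which has a start further upstream, and 0 do for Gclm and Nqo1. The Nfe2l2 window therefore holds no bases upstream of the outermost start, and the Gclc window holds only the few that lie outside the span. Over all 33469 windows, 12.1% held at least 1 match, so a match is common. The sequences with a match are shown as a description, and a link between a match and the response of a gene was not tested. The Gclm stretch is the 250 bases upstream of the start, at chr2:213031885-213032134 on the plus strand. Its capitals mark the match, which reads TGACTAAGC on the opposite strand and lies 172 to 164 bases before the start. The Nfe2l2 stretch is the 30 bases at chr3:81028950-81028979 on the minus strand. Its capitals mark a match that begins 38 bases after the annotated start.
Gclm: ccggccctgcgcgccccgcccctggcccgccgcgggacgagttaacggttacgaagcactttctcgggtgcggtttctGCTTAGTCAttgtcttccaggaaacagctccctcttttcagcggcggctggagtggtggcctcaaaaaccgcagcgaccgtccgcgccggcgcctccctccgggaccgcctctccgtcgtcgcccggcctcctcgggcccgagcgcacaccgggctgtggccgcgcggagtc
Nfe2l2: actgctccgactagccatTGACGCCGCctc
A match describes these letters only and is not evidence of binding. The absence of a match in the Gclc and Nqo1 windows says nothing of sites elsewhere.

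Levels are given in FPKM, fragments scaled by gene length and library size, which allows comparison between genes. Folds and tests are on log2(FPKM + 1), which slightly understates the change of low genes, and are from limma with Benjamini-Hochberg adjustment over the 12056 genes whose mean reached 1 FPKM. Genes with an adjusted p below 0.05 are termed called. Of the 5 genes, 4 passed this filter, which uses the mean over all 12 libraries. Nqo1, with a mean of 0.558 FPKM, did not.

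One library stands apart from the rest. Control 8 h replicate 2 had a summed FPKM of 588250, where the other 11 ran from 690766 to 764988. In it, 1004 genes lay at least 2-fold (on FPKM + 1) over the average of its group mates, against 90 to 230 in the others. Its value was 0.704 of the mean of the other 2 controls at 8 h for Gclm, 0.733 for Nqo1, 0.792 for Nfe2l2, 0.882 for Gclc and 0.988 for Hmox1. The fold changes at 8 h and the differences between the times are therefore also given without this library.

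Nfe2l2, Hmox1 and Gclc rose at 8 h of tunicamycin, by 3.90-, 5.15- and 1.89-fold as ratios of the mean FPKM. Gclm, the partner subunit of Gclc, was not called in either direction, and Nqo1 lay under 1 FPKM in each of the 12 libraries. At 2 h, 0 of the 4 genes tested were called by limma, against 0.556% of all genes tested, and 1 of the 4 had an unadjusted p under 0.05, against 7.21%. At 8 h, 3 of the 4 were called higher and 0 lower, where 17.8% of all genes tested were called higher and 15.5% lower. The median log2 fold change at 8 h was 1.37 over the 4 genes and −0.02 over all genes tested. The list is short and was chosen with earlier results of these data known, so these counts describe the 4 genes and no more.

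**Figure D1:**
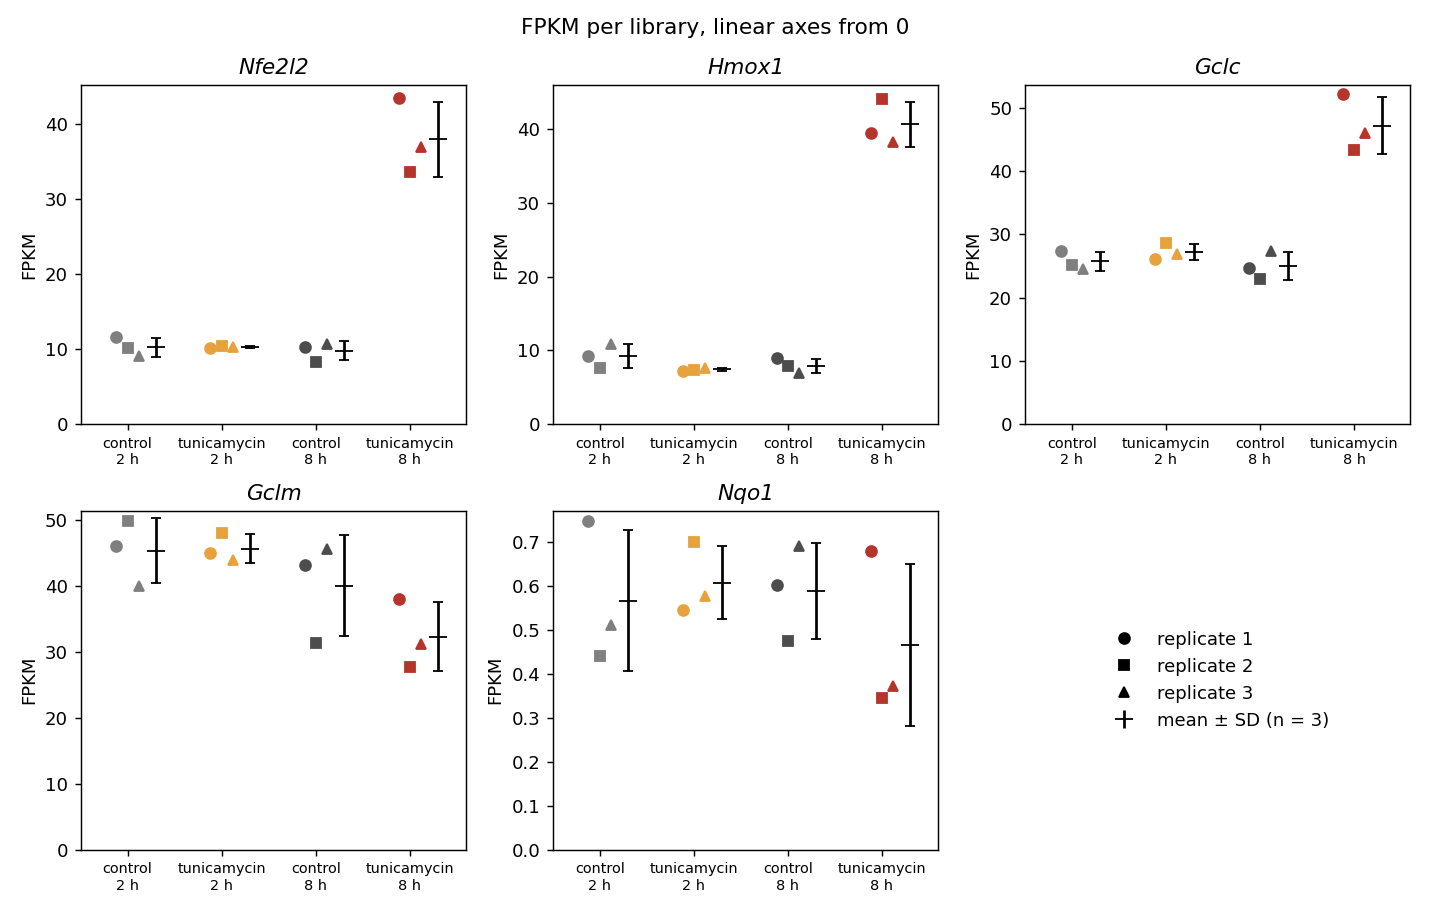
FPKM of the 5 genes (linear axes from 0) in each of the 12 libraries by group, with the mean ± SD of 3 libraries at the right of each group. The 3 libraries at 8 h of tunicamycin stand above the other 9 for Nfe2l2, Hmox1 and Gclc, whereas for Gclm they overlap with control 8 h replicate 2 and Nqo1 stays under 0.75 FPKM throughout.

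Nfe2l2, the regulator itself, measured 10.3, 8.30 and 10.7 FPKM in control replicates 1, 2 and 3 at 8 h, and 43.4, 33.6 and 36.9 FPKM in the tunicamycin libraries. Every treated library lay above every control, as was the case in either direction for 41.2% of all genes tested. The mean went from 9.75 ± 1.27 to 38.0 ± 5.00 FPKM (SD, n = 3 each). On the log2 scale the rise was 1.86 ± 0.12 (SE; adjusted p = 2.56e-06 by limma). Without control 8 h replicate 2 it was 1.76 ± 0.11 (SE; limma adjusted p = 5.80e-06). At 2 h the controls had 11.6, 10.1 and 9.07 FPKM and the treated libraries 10.1, 10.4 and 10.2 FPKM. The treated values at 2 h lay inside the range of the controls, with a log2 fold change of 0.00 and a 95% interval from −0.26 to 0.27 (limma adjusted p = 1). In the order of group means, 8 h of tunicamycin came first, and the other 3 groups, from 9.75 to 10.3 FPKM, did not differ beyond their spread.

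Hmox1, the heme-degrading enzyme, had the largest fold of the 5 genes at 8 h. Its controls measured 8.91, 7.82 and 6.92 FPKM and the tunicamycin libraries 39.4, 44.1 and 38.3 FPKM. The groups were far apart relative to their spread, with means of 7.88 ± 1.00 and 40.6 ± 3.09 FPKM (SD, n = 3 each). The log2 rise was 2.23 ± 0.12 (SE; adjusted p = 7.88e-07 by limma). Without control 8 h replicate 2 the log2 fold change was again 2.23 (SE 0.14; limma adjusted p = 4.57e-06). By size of the rise, Hmox1 ranked 87 and Nfe2l2 ranked 147 among the 12056 genes tested.

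At 2 h Hmox1 was the gene with the unadjusted p under 0.05. Its control libraries had 9.29, 7.64 and 10.9 FPKM, and treated libraries 7.25, 7.34 and 7.66 FPKM. Of the treated libraries, 2 lay below the lowest control and the third just above it. The log2 fold change was −0.28 ± 0.12 (SE), with an unadjusted p of 0.0452 and an adjusted p of 0.676 (limma), so Hmox1 was not called. The 2 groups at 2 h and the control at 8 h, with means from 7.42 to 9.27 FPKM, overlapped in their order.

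**Figure D2:**
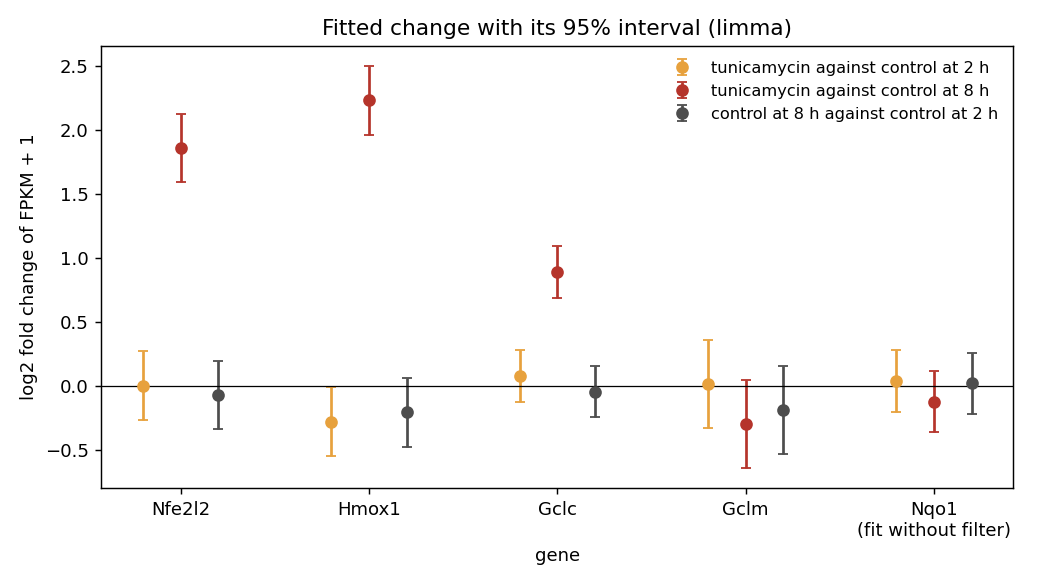
Log2 fold change of FPKM + 1 (vertical axis) of each gene for the tunicamycin effect at 2 h and at 8 h and for control at 8 h against 2 h, with 95% intervals from limma; Nqo1 is from the fit without a filter. Only the 8 h tunicamycin intervals of Nfe2l2, Hmox1 and Gclc lie wholly above 0, and the upper end for Hmox1 at 2 h is −0.01.

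Gclc, the catalytic subunit of the ligase, rose less steeply, from a higher starting level. Control libraries at 8 h had 24.6, 22.9 and 27.4 FPKM and tunicamycin libraries 52.1, 43.3 and 46.1 FPKM, with no overlap. The means were 25.0 ± 2.24 and 47.2 ± 4.52 FPKM (SD, n = 3 each), and the log2 rise was 0.89 ± 0.09 (SE; adjusted p = 5.14e-05 by limma). Without control 8 h replicate 2 it was 0.83 ± 0.09 (SE; limma adjusted p = 0.000105). Gclc ranked 750 by size of the rise, and its fold lay above the median of 0.62 over all genes called higher. At 2 h the controls had 27.4, 25.2 and 24.6 FPKM and the treated libraries 26.1, 28.6 and 26.9 FPKM, which overlap (log2 fold change 0.08, 95% interval from −0.12 to 0.28, limma adjusted p = 0.988).

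Gclm, the modifier subunit that improves the catalytic subunit's affinity for glutamate, was not called at 8 h, unlike Gclc. At that time its controls measured 43.2, 31.3 and 45.7 FPKM and the tunicamycin libraries 38.0, 27.7 and 31.3 FPKM. All 3 treated libraries lay below 2 of the controls, and the third control, replicate 2, sat among the treated values. The means were 40.1 ± 7.69 and 32.4 ± 5.23 FPKM (SD, n = 3 each). The log2 fold change was −0.29 ± 0.15 (SE), with a 95% interval from −0.64 to 0.05, and was not called (limma adjusted p = 0.179). The upper end of this interval lies below the lower end of the interval of Gclc, 0.69. Without control 8 h replicate 2, Gclm was called lower, at −0.46 ± 0.13 on the log2 scale (SE; adjusted p = 0.0192 by limma); in that fit 21.0% of all genes were called lower. Whether Gclm fell at 8 h therefore rests on that library. At 2 h its treated libraries had 45.0, 48.1 and 44.0 FPKM, inside the range of the controls at 46.1, 49.9 and 40.1 FPKM (log2 fold change 0.02, limma adjusted p = 1).

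**Figure D3:**
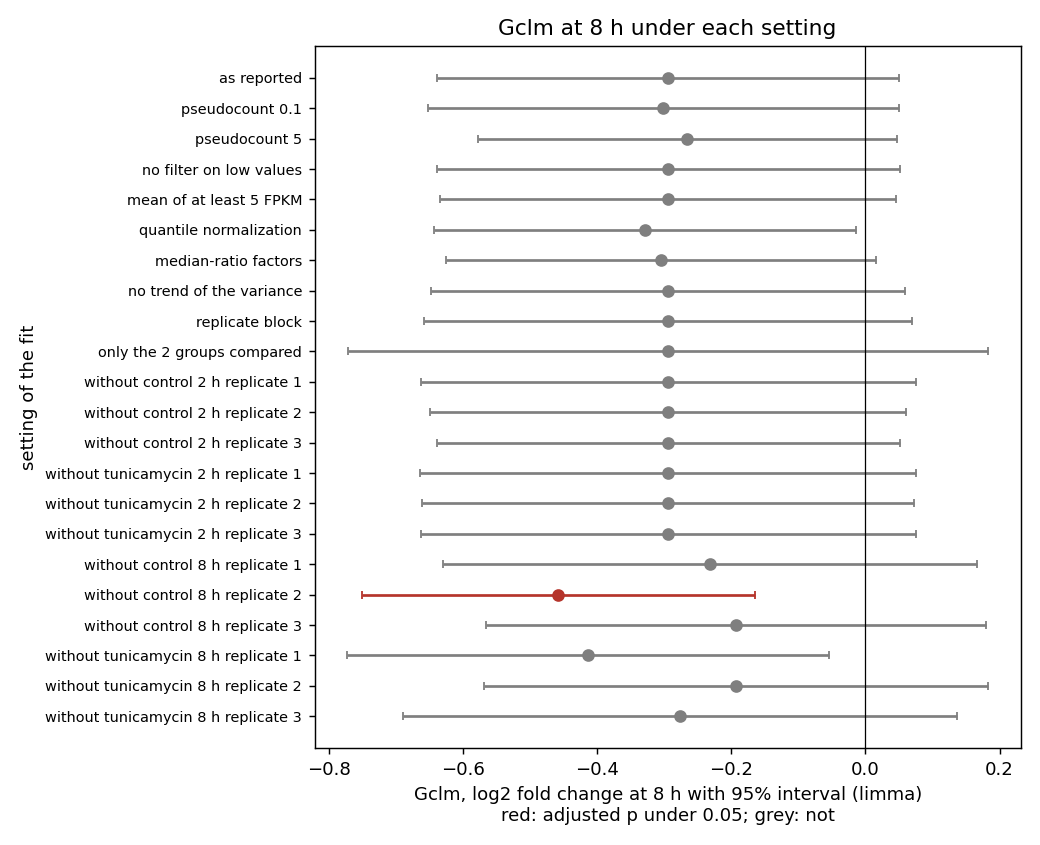
Log2 fold change of Gclm for tunicamycin against control at 8 h (horizontal axis, with 95% intervals from limma) as reported and under each alternative setting (vertical axis). The estimate is below 0 as reported and in all 21 alternatives, which run from −0.46 to −0.19, and is called only without control 8 h replicate 2 (red).

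The RNAs of the ligase subunits changed order at 8 h. The ratio of Gclm to Gclc FPKM within a library was 1.68, 1.98 and 1.63 in control and 1.73, 1.68 and 1.64 with tunicamycin at 2 h. It was 1.75, 1.37 and 1.67 in control at 8 h, and 0.730, 0.640 and 0.679 with tunicamycin. In 9 of 9 other libraries Gclm stood above Gclc, and in 3 of 3 libraries at 8 h of tunicamycin it stood below. The mean ratio at 8 h was 1.60 ± 0.205 in control and 0.683 ± 0.0447 with tunicamycin (SD, n = 3 each; exact permutation test, two-sided, p = 0.1, the smallest that 3 against 3 libraries allow). Without control 8 h replicate 2 the control mean was 1.71. The ratio is of RNA levels and says nothing of the protein subunits.

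**Figure D4:**
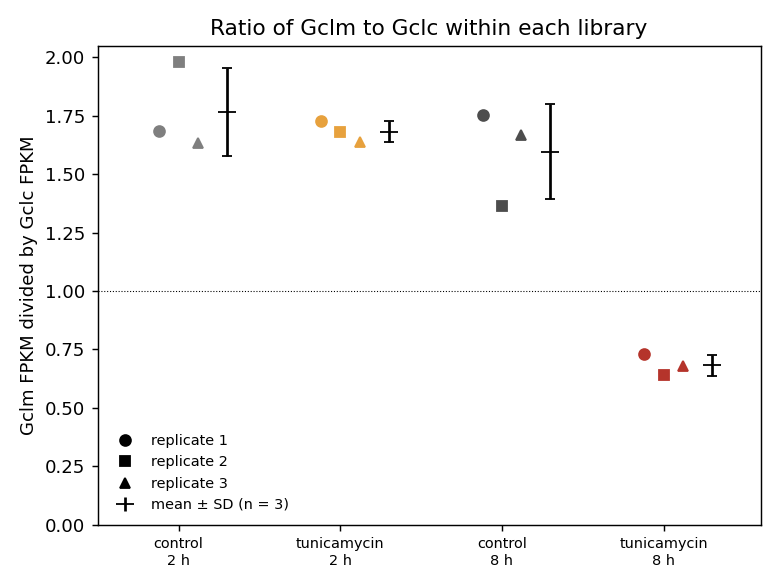
Gclm FPKM divided by Gclc FPKM (linear axis from 0) in each library by group, with the mean ± SD of 3 libraries. The 3 libraries at 8 h of tunicamycin lie from 0.640 to 0.730, under the dotted line at 1, and the other 9 from 1.37 to 1.98.

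Nqo1, the quinone reductase often used as a readout of Nrf2 activity, was close to the floor of these data. Its control libraries at 8 h had 0.602, 0.474 and 0.691 FPKM and the tunicamycin libraries 0.679, 0.346 and 0.373 FPKM. The groups overlapped, and 2 of the 3 treated libraries were lower than every control. Libraries at 2 h had 0.748, 0.442 and 0.511 FPKM in control and 0.545, 0.701 and 0.578 FPKM with tunicamycin, again overlapping. In the fit without a filter on low values the log2 fold change was −0.12 ± 0.11 (SE) at 8 h, with a 95% interval from −0.36 to 0.12 (limma adjusted p = 0.55). It was −0.17 ± 0.12 without control 8 h replicate 2 (SE; limma adjusted p = 0.395). At 2 h it was 0.04 ± 0.11 (SE; limma adjusted p = 1). The pseudocount of 1 FPKM exceeds the level of Nqo1, so these folds and their intervals are compressed. With a pseudocount of 0.1 the value at 8 h was −0.32 ± 0.29 (SE, limma adjusted p = 0.56). The counts behind the values are unknown. No change of Nqo1 was called. At this level the spread allows changes larger than the fitted values, so a lack of change cannot be read from them.

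The response of 3 genes was larger at the later time. The tunicamycin effect was larger at 8 h than at 2 h by 1.85 ± 0.17 on the log2 scale for Nfe2l2 (SE; limma interaction, adjusted p = 8.52e-05). For Hmox1 the difference was 2.51 ± 0.17 (SE; limma interaction, adjusted p = 1.49e-05), and for Gclc 0.81 ± 0.13 (SE; limma interaction, adjusted p = 0.00247). These differences were 1.75, 2.50 and 0.75 without control 8 h replicate 2 (limma adjusted p = 9.96e-05, 3.96e-05 and 0.00239). With all libraries, the difference was called upward for 3 of the 4 genes, against 7.47% of all genes tested, and downward for 0, against 5.76%. For Gclm it was −0.31 ± 0.22 (SE; limma interaction, adjusted p = 0.441), and without control 8 h replicate 2 it was −0.47 with an adjusted p of 0.0859 by limma.

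Time in culture alone gave no call among the 4 genes, and only 3 calls among all genes tested. For control at 8 h against control at 2 h, 0 of the 4 genes were called by limma, and 0 of the 4 had an unadjusted p under 0.05, against 0.0249% and 3.19% of all genes tested. The log2 differences were −0.07 for Nfe2l2, −0.20 for Hmox1, −0.04 for Gclc and −0.19 for Gclm, with adjusted p from 0.66 to 0.842 (limma). The Gclm difference was −0.02 without control 8 h replicate 2.

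The genes changed places in level. In control at 2 h the order of mean FPKM was Gclm at 45.4, Gclc at 25.7, Nfe2l2 at 10.3, Hmox1 at 9.27 and Nqo1 at 0.567, and only Nfe2l2 and Hmox1 overlapped as neighbours. At 8 h of tunicamycin it was Gclc at 47.2, Hmox1 at 40.6, Nfe2l2 at 38.0, Gclm at 32.4 and Nqo1 at 0.466. There the ranges of each pair of neighbours except Gclm and Nqo1 overlapped. Within each library, Nfe2l2 still stood above Gclm, at 43.4 against 38.0, 33.6 against 27.7 and 36.9 against 31.3 FPKM in replicates 1, 2 and 3. The order of the other overlapping pairs changed between libraries. Gclm did not overlap with Gclc or Hmox1, since its highest library, at 38.0 FPKM, lay below the lowest of Gclc, at 43.3, and of Hmox1, at 38.3. Among all genes tested, the share with a lower group mean went from 34.8% in control at 8 h to 76.0% with tunicamycin for Hmox1, and from 40.3% to 74.7% for Nfe2l2. For Gclc it went from 65.5% to 78.9%, and for Gclm from 76.6% to 71.1%.

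**Figure D5:**
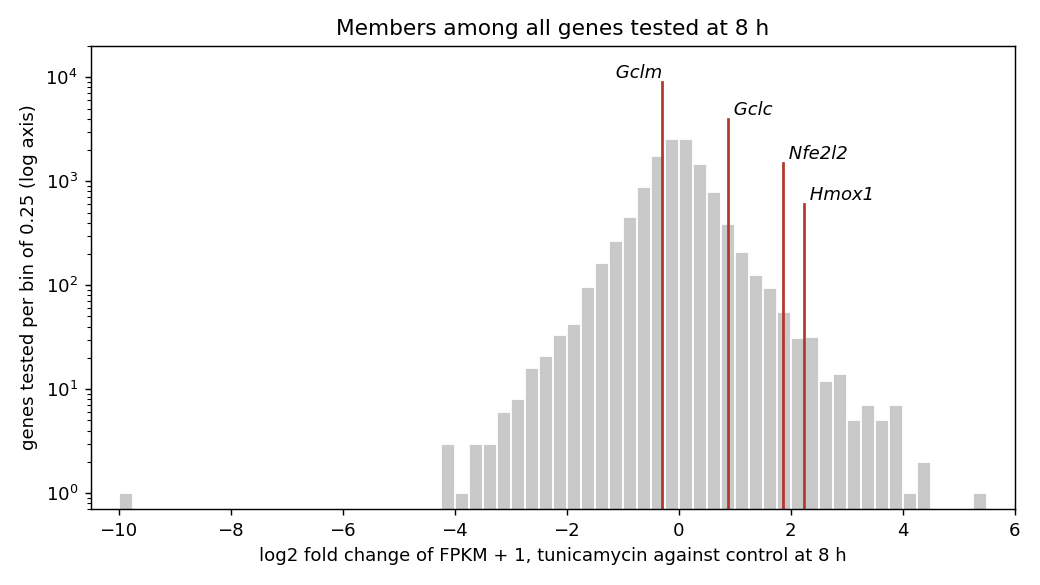
Number of genes tested (log axis) by log2 fold change at 8 h of tunicamycin in bins of 0.25, with red lines at the 4 members tested. Hmox1 at 2.23 and Nfe2l2 at 1.86 lie in the upper tail, Gclc at 0.89 on the upper shoulder, and Gclm at −0.29 just left of the centre.

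Likeness of pattern was measured as the Pearson correlation of log2(FPKM + 1) over the 12 libraries, among 11469 genes, leaving out those with both a listed 0 and a value of at least 10 FPKM. It is a description, since the 3 libraries at 8 h of tunicamycin carry most of it for the genes that rose. The 3 genes most like Nfe2l2 had correlations from 0.997 to 0.999, those most like Hmox1 from 0.990 to 0.993, and those most like Gclc from 0.994 to 0.996. All of these were called higher at 8 h, which follows from picking them for likeness to genes called higher. Their IDs have no paired names. Gclc ranked 24 and Hmox1 ranked 204 in likeness to Nfe2l2, with correlations of 0.990 and 0.968. For Nfe2l2, 381 genes had a correlation over 0.95, so a profile of this kind is widespread. Gclm correlated negatively with Nfe2l2, at −0.60, and ranked 8801 in likeness to it. Of the 3 genes most like Gclm, 0 were called at 8 h, against 17.8% called higher and 15.5% lower among all genes tested. They were likewise picked for likeness to a gene that was not called.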

How the data were processed

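The authors deposited 1 table of FPKM values per gene and library. Per the labels' protocols, libraries were stranded, from total RNA after ribosomal RNA removal. Per the submitters' processing notes, the build was rn6 and the tools were Cuffnorm, Cuffdiff 2.1.1, Cufflinks 2.2.1, TopHat2 2.0.4 and FastQC 0.10.1, without their roles. How fragments were assigned to genes is not stated there, and depth is unknown, so no count model was run. Median-ratio factors computed from the values lay between 0.948 and 1.01.

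The sample titles gave treatment, time and replicate number. Group means were fitted to log2(FPKM + 1) of all 12 libraries with limma 3.58.1 (R 4.3.3) and a mean-variance trend, with 8 residual and 2.01 prior degrees of freedom. The fit was also run on simulated data with independent normal noise. These held no library apart from its group, so that run does not bear on control 8 h replicate 2. Permutation tests used scipy 1.17.1.

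The members and lists were chosen with earlier results of these data known. All 5 members were to be named, with the 3 genes most like each. A further 8 pathway lists (103 genes) and 8 marker lists (39 genes) have no result: 0 of 47357 RefSeq entries matched an ID of the table. Alternatives were other pseudocounts, filters, scalings, variance models, fits with fewer samples and a replicate block. Fits of Nqo1 without a filter that also changed the pseudocount or left out a library were added after seeing the data.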

Additional observations from a re-analysis of the deposited data

Results flagged for a closer look

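For 3 of the 4 genes tested, the interaction test called a tunicamycin effect that was unequal at the 2 times, which is why they are listed here. Among all genes tested, this difference was called upward for 7.47% and downward for 5.76%. The difference, 8 h minus 2 h on the log2 scale, was 1.85 for Nfe2l2, 2.51 for Hmox1 and 0.81 for Gclc (limma adjusted p = 8.52e-05, 1.49e-05 and 0.00247). Treated libraries lay above the controls of their time in 3 of 3 at 8 h for each gene. For 41.2% of all genes tested, the groups at 8 h likewise did not overlap, in either direction. Over the alternatives the adjusted p ranged from 6.04e-05 to 0.000556 for Nfe2l2, from 7.79e-06 to 0.000226 for Hmox1 and from 0.0018 to 0.0101 for Gclc.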

How the results depend on the processing

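Under all 21 alternatives at 8 h, and all 20 for the difference between the times, the same 3 genes, Nfe2l2, Hmox1 and Gclc, were called higher, and no member was called at 2 h or between the controls. Log2 fold changes at 8 h ranged from 1.54 to 1.95 for Nfe2l2, from 1.82 to 2.36 for Hmox1 and from 0.80 to 0.95 for Gclc, the lowest with a pseudocount of 5. Gclm was called lower only without control 8 h replicate 2, so the count of members lower at 8 h ran from 0 to 1 with a library left out, and its log2 fold change from −0.46 to −0.19.

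Values near 0 changed sign when a library was left out, none of them called. At 2 h they ran from −0.0724 to 0.0887 for Nfe2l2, from −0.0687 to 0.0854 for Gclm and, without a filter, from −0.0168 to 0.122 for Nqo1; between the controls, from −0.145 to 0.0338 for Nfe2l2, from −0.107 to 0.0162 for Gclc and from −0.0348 to 0.104 for Nqo1.

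Counts over the whole table moved more than the members. At 2 h the 67 genes became 40 after quantile normalization, 32 with the replicate block, 30 with only the 2 groups fitted, and 18 to 115 with a library left out. The range moved beyond 1.5 times without any of the 6 libraries at 2 h (18 to 35), tunicamycin 8 h replicate 2 (42) or 3 (31), or control 8 h replicate 2 (115). At 8 h the 4016 genes became 2591 with only the 2 groups fitted and 3018 to 4993 with a library left out. The 1595 genes of the difference became 1035 to 2605, the extremes without tunicamycin 8 h replicate 3 and control 8 h replicate 2. Between the controls the 3 genes became 1 with a pseudocount of 5 and 2 to 10 with a library left out (8, 6 and 10 without control 8 h replicate 1, 2 and 3). The cause was not tested.

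No pairing of samples by replicate number was seen. Deviations from the group means of same-numbered libraries correlated from −0.18 to 0.13, with 2 of 18 pairs over 0.1. With 3 libraries in each group this check is weak and cannot show that the samples were unpaired. The replicate block changed no call of a member. The unknown depth limits Nqo1 most.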
